A study of Caenorhabditis elegans with 78 samples.

Results

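The X chromosome of Caenorhabditis elegans first-stage (L1) larvae held 391 regions that carried a called peak of H3K9me2 in every one of the 4 wild-type libraries, out of 5135 such regions on all chromosomes. H3K9me2 is histone H3 dimethylated at lysine 9, a mark of repressed chromatin. To choose the members, overlapping peaks of 16 H3K9me2 lists were merged into 16691 regions, of which 2875 lay on X. A region counted as called in a library when a peak of that library overlapped it by at least 1 bp. Regions on X called in all 4 wild-type lists were kept, so the wild-type calls, and with them the wild-type width, rank and covered length, are descriptions with no test. On X another 175 regions were called in 3 of the wild-type lists, 148 in 2, 255 in 1 and 1906 in none.

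The study asked which chromatin changes accompany altered gene expression in mutants of 3 genes, each compared with the wild-type strain N2. The alleles were lin-35(n745), lin-37(n758) and lin-15B(n744), 1 per gene. For H3K9me2 and for H3K4me3 (histone H3 trimethylated at lysine 4) there were 4 libraries per genotype, 2 from larvae of cultures kept at 20 °C and 2 from the progeny of worms moved to 26 °C as fourth-stage larvae. All larvae hatched without food and whole animals were used, so that fewer cells with a mark and less of the mark per cell cannot be told apart. The lists give positions of called peaks and no read counts: the depth behind a peak is unknown, and a missing peak means only that none was called.

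In worms, H3K9me2 lies mainly on the repeat-rich arms of the chromosomes and marks repeats and silent genes, while H3K4me3 marks the promoters of active genes. The X chromosome is a special case, since it is the target of dosage compensation in hermaphrodites and carries few genes used in the germline. LIN-15B is a DNA-binding protein with a THAP domain, LIN-35 is related to the retinoblastoma protein, and LIN-37 acts beside it in the repressive DREAM complex. All 3 belong to the synMuv B group of genes, which keep germline genes off in the soma. Regions are named by their position in the build ce10, without gene names, since no annotation of that build was used here.

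One library stood apart. The library of lin-15B at 20 °C, replicate 1, carried a q cutoff of 0.05 in its peak names where the other 31 lists carried 0.01, and the wild-type regions called in it were fewer than in the other lin-15B libraries. On X it shared a Jaccard index (overlap over union of covered length) of 0.232 with its partner at 20 °C, against 0.471 to 0.578 for the other 7 pairs of the same genotype and temperature. Its peaks covered 389 kb of X and those of the partner 1311 kb. Unequal lengths alone lower the index, which does not tell which of the pair departs. Values of lin-15B without it, over the 3 other libraries, were computed after the data were seen and are given beside the main ones. The H3K9me2 lists held 7420 peaks or more each, and 8 of the 16 H3K4me3 libraries carried a code in common in their names, whose meaning is not given.

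The wild-type regions were sparse on X and crowded towards its ends. There were 22.1 regions per Mb of X, against 70.3 on I, 54.6 on II, 70.2 on III, 52.1 on IV and 46.4 on V. Within 4 Mb of an end lay 302 of the 391, with 135 at the left end and 167 at the right, and the remaining 89 were spread over the middle. The density was 41 per Mb in the outermost 1 Mb, 52 per Mb at 1 to 2 Mb from an end, 37.5 at 2 to 3 Mb and 20.5 at 3 to 4 Mb. Beyond that it dropped to 9.5 per Mb at 4 to 6 Mb and 8.92 per Mb at 6 to 8.86 Mb from the nearer end.

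**Figure D1:**
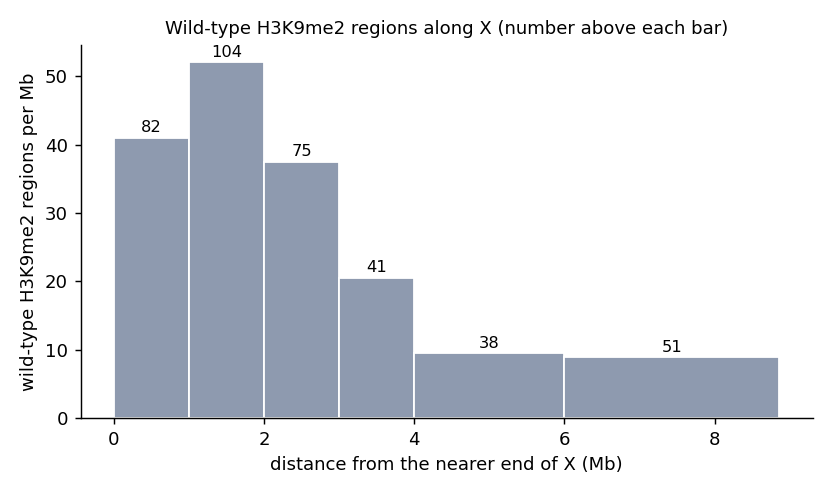
Wild-type H3K9me2 regions per Mb of X (vertical axis) by distance in Mb from the nearer chromosome end (horizontal axis), both ends combined; the number above each bar is its count of regions. The density is highest, 52 per Mb, at 1 to 2 Mb from an end and lowest, 8.92 per Mb, in the middle of the chromosome.

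Of the 18 bins of 1 Mb along X, the bin from 16 to 17 Mb held the most regions, 56, with a mean of 43.1 kb covered in wild type. The fewest, 5 each, lay in the bins from 6 to 7 Mb and from 10 to 11 Mb. The bin from 8 to 9 Mb stood out from its neighbours with 21 regions, against 7 from 7 to 8 Mb and 11 from 9 to 10 Mb. Neighbouring regions were a median of 16.4 kb apart. Of the 390 gaps, 24 were under 1 kb and 49 were at least 100 kb, and the longest, 628.6 kb, ran between positions 12607901 and 13236500 of X (ce10).

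Regions on X were shorter than those on the autosomes. Their width was a median of 1119 bp (285 to 13982 bp), against 1695.5 bp for the 4744 autosomal regions chosen by the same rule. Within them the wild-type peaks covered a median of 454.5 bp, against 862.5 bp on the autosomes. Altogether the X regions spanned 697.4 kb, 3.94% of X, and wild-type peaks covered on average 1.84% of X inside them. A few long regions made up much of the total: 23 of at least 5 kb held 27.1% of the length, while 178 were under 1 kb.

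Rank was measured as the percentile of a peak's score within its own whole-genome list, 100 being the highest. The X regions had a median wild-type percentile of 59.0 (10.4 to 99.2) and the autosomal ones 63.9. The X regions just outside the rule, called in 3 of 4 wild-type lists, had a median percentile of 31.9 and a median width of 941 bp. The highest-ranked of those, X 7077431 to 7079263, reached the 97.5th percentile and was covered for 1829, 1775 and 1767 bp in 3 wild-type libraries, and it had no peak in wild type at 20 °C, replicate 1. A single library thus kept it out.

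The region with the highest wild-type percentile was X 3630938 to 3632018, at 99.2 ± 1.57 (SD, n = 4). Its covered length in the 4 wild-type libraries was 571, 920, 757 and 662 bp, and the mutant libraries lay between 618 and 988 bp. It was followed by X 179971 to 182026 (98.6 ± 0.518), where the wild-type libraries covered 1706 to 1910 bp and the mutant libraries 1547 to 1972 bp. In both, wild-type and mutant values overlapped and all 16 libraries had a peak. The next in rank was X 15724853 to 15726043 (97.7 ± 2.59), which heads the lost regions of lin-15B. X 1856026 to 1856864 (97.7 ± 1.43) and X 16778371 to 16779514 (97.4 ± 1.63) complete the 5 highest and were called in all 16 H3K9me2 libraries.

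The widest regions did not rank high as a group. X 128754 to 142735, the widest at 13982 bp, lay at the 46.6th percentile and was covered for 7298, 12701, 8185 and 5163 bp in wild type. X 82209 to 95070 (12862 bp) was the exception, at the 88.5th percentile, and X 16826387 to 16838818 (12432 bp, 50.3rd percentile) was the most even, with 10411 to 11003 bp covered in wild type and 10755 to 12194 bp in the mutants. X 1766575 to 1778201 (11627 bp, 26.3rd percentile) was called as fragments in wild type, with 1363, 2643, 6860 and 6059 bp covered. In lin-37 it was covered for 10154, 7521, 9167 and 8210 bp, all above the wild-type libraries. X 114018 to 125061 (11044 bp, 44.2nd percentile) was the only one of these 5 with an H3K4me3 peak in all 16 libraries.

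Most of the 391 regions stayed called in the mutants. In all 12 mutant libraries 247 had a peak, in 9 to 11 of them 110, in 5 to 8 of them 25, and 9 regions in 4 or fewer. This split was not computed over all wild-type regions, so it is not read as a trait of X. The share called per library was 73.1%, 96.2%, 96.9% and 96.2% in lin-15B (20 °C replicates 1 and 2, then 26 °C replicates 1 and 2). In lin-35 it was 91.6%, 92.1%, 89.5% and 80.3%, and in lin-37 96.9%, 93.9%, 95.4% and 95.7%. The libraries that stand low are lin-15B at 20 °C, replicate 1, and lin-35 at 26 °C, replicate 2, while the 4 lin-37 libraries lie close together.

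The means were 90.6% ± 11.6 for lin-15B, 88.4% ± 5.48 for lin-35 and 95.5% ± 1.26 for lin-37 (SD, n = 4). The 3 mutants did not differ past the threshold of 0.05 (exact permutation test over the 12 libraries, p = 0.403, adjusted p = 0.537 over 9 tests across libraries). Every lin-35 library lay below every lin-37 library, a mean difference of -7.10 percentage points (exact permutation p = 0.0286, the smallest that 4 against 4 allow, adjusted p = 0.0857 over 3 pairs). Without lin-15B at 20 °C, replicate 1, the exact permutation p over the 3 mutants was 0.00970. That library missed 105 regions, 83 of which were called in the 3 other lin-15B libraries, and 42 were missing in it alone of the 12 mutant libraries. The mean of the 3 others was 96.4% ± 0.443.

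Regions of lower wild-type rank were called less often in the mutants. Among the 145 regions under the 50th wild-type percentile the mean share called was 83.8% for lin-15B, 79.1% for lin-35 and 89.7% for lin-37. Among the 112 regions at or above the 75th percentile it was 98.0%, 94.6% and 100%. Without 20 °C replicate 1 the lin-15B shares were 93.1% and 98.8%. Over the 391 regions Spearman's rho between wild-type percentile and the number of mutant libraries called was 0.429, and with wild-type covered length it was 0.427. Rank and covered length come from the wild-type lists that chose the regions, and no wild-type library was held out as a baseline. Regions of a library also share its list, so these are descriptions. The distance from the nearer end gave a rho of -0.137.

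With a region counted as lost when none of the 4 libraries of a mutant had a peak, lin-15B lost 6 of the 391 X regions (1.53%), lin-35 lost 19 (4.86%) and lin-37 lost 7 (1.79%). Over all 5135 wild-type regions the shares lost were 5.43%, 3.74% and 2.86% in the same order. Since the rule used the wild-type calls, nothing is read from the difference. In all, 23 regions were lost in at least 1 mutant and 3 in all of them, while 14 were lost in lin-35 alone, 2 in lin-15B alone and 1 in lin-37 alone. The same split over all 5135 wild-type regions was not computed, so it is not read as a trait of X. Of the 14, 2 were called in all 8 libraries of the other mutants. The rest all lacked a peak in lin-15B at 20 °C, replicate 1, the library that stood apart. Most of them were called in every other library of lin-15B and lin-37. These comparisons share the 4 wild-type libraries. Without wild type at 20 °C, replicate 1, 478 regions met the rule and the losses were 17, 33 and 15. Without wild type at 26 °C, replicate 2, 421 regions met it and the losses were 13, 25 and 14. Without lin-15B at 20 °C, replicate 1, lin-15B lost 6. Single temperatures, with 2 libraries against 2, gave 30, 36 and 26 losses at 20 °C and 27, 98 and 45 at 26 °C. There the regions were those called in the 2 wild-type libraries of that temperature, so these counts are not out of 391. Shares over all regions were not computed for these settings, and nothing is read from the counts.

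Lost regions had a median of 329 bp covered in wild type, against 477 bp for the other 368, and their median percentile was 47.2 against 60.0. Of the 23, 18 lay within 4 Mb of an end (78.3%), a share near the 77.2% of the other 368. In lin-15B 3 of the 6 lost regions lay there, against 77.7% of those not lost. In lin-37 it was 4 of the 7 against 77.6%, and in lin-35 14 of the 19 against 77.4%. The counts are small, and nothing is read from them.

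**Figure D2:**
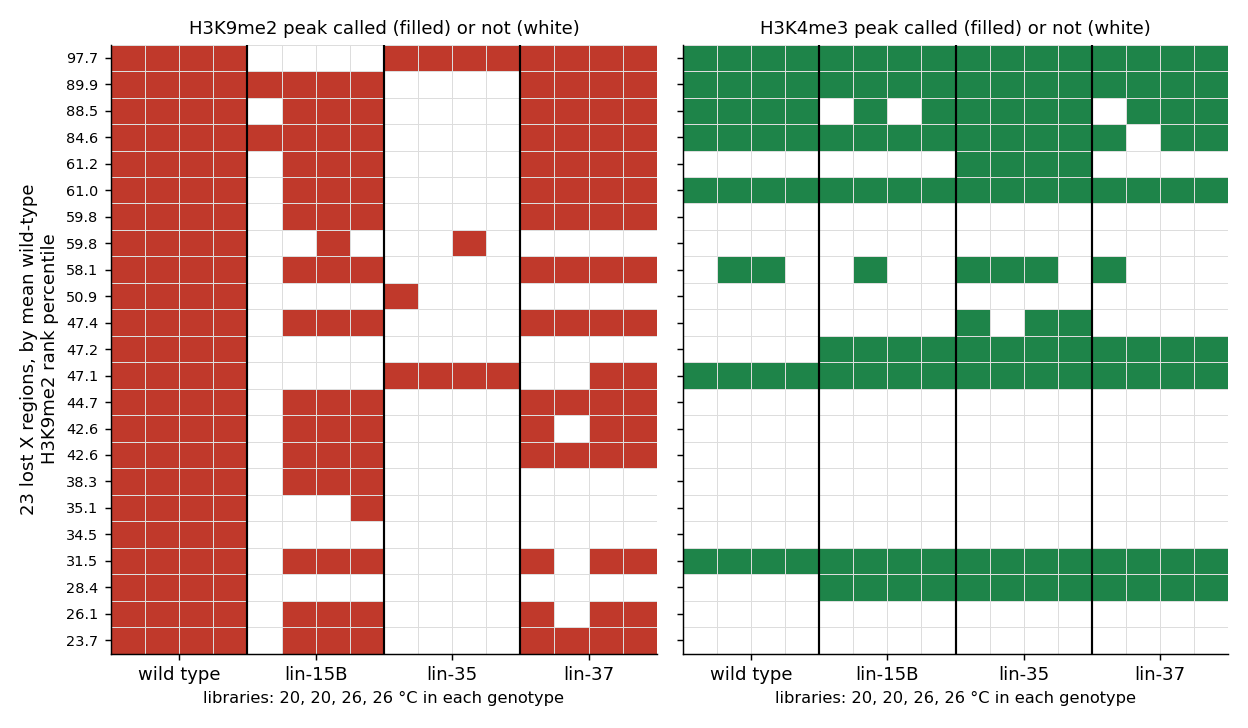
The 23 X regions lost in at least 1 mutant (rows, labelled by mean wild-type rank percentile) in the 16 libraries of H3K9me2 (left) and H3K4me3 (right); within each genotype the columns are 20 °C replicates 1 and 2, then 26 °C replicates 1 and 2. Red or green marks a library with a called peak and white one without. The row at 97.7 is empty for H3K9me2 in lin-15B alone, and the rows at 47.2 and 28.4 lose H3K9me2 and gain H3K4me3 in all 3 mutants.

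The lost region of highest wild-type rank was X 15724853 to 15726043. Its H3K9me2 peaks covered 677, 1191, 666 and 408 bp in wild type, 575, 545, 560 and 493 bp in lin-35, 489, 373, 461 and 472 bp in lin-37, and 0 bp in each lin-15B library. The lin-15B libraries are thus the low group, with no overlap with any other genotype. The gene lin-15B itself lies on X, and whether this region falls at that gene was not determined here, since no annotation of ce10 was used. An H3K4me3 peak was called there in all 16 libraries, and the authors' deposited fold enrichment (the highest of the overlapping peaks) was 22.2 ± 8.86 in wild type, 34.5 ± 8.68 for lin-15B, 18.5 ± 4.71 for lin-35 and 25.0 ± 7.08 for lin-37 (SD, n = 4). Folds from separately called lists are not on 1 scale, so no comparison is made between them. Its neighbour to the left, X 15706748 to 15707545 (94.1st percentile), also had H3K4me3 in all 16 libraries but was called for H3K9me2 in all 16 too.

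Further losses concern regions with H3K4me3 already in wild type. In lin-35 the first 3 lost regions by rank all had H3K4me3 in all 4 wild-type libraries. At X 14101567 to 14102370 (89.9th percentile) H3K9me2 covered 350, 570, 742 and 646 bp in wild type, 124 to 447 bp in lin-15B, 337 to 537 bp in lin-37 and 0 bp in all 4 lin-35 libraries. X 14146039 to 14146639 (88.5th percentile) was covered for 432 to 601 bp in wild type, and X 5984716 to 5985193 (84.6th percentile) for 351 to 413 bp. Both were at 0 bp in all 4 lin-35 libraries and called in all 4 lin-37 libraries, and lin-15B called the first in 3 and the second in 4 libraries. X 2852293 to 2853599 (61.0th percentile) followed the same course, with 294 to 413 bp in wild type, 0 bp in lin-35 and H3K4me3 in all 16 libraries. Of the 23 lost regions 7 had H3K4me3 in all 4 wild-type libraries, and the lowest-ranked of these was X 2591481 to 2592143 (31.5th percentile), lost in lin-35 and with H3K4me3 in all 16. X 2687290 to 2687761 (47.1st percentile) was lost in lin-15B, called in 4 lin-35 and 2 lin-37 libraries and with H3K4me3 in all 16.

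The regions lost in all 3 mutants ranked lower, and all of them lay in the middle of X, 7243 to 8147.5 kb from the nearer end. X 8147086 to 8147849 (47.2nd percentile) was covered for 326, 764, 373 and 322 bp in wild type and had no H3K9me2 peak in any of the 12 mutant libraries. H3K4me3 showed the reverse, with no peak in wild type and a peak in all 12 mutant libraries, at a deposited fold of 18.7 ± 2.64 for lin-15B, 24.2 ± 6.20 for lin-35 and 23.6 ± 8.84 for lin-37. X 10475966 to 10476282 (28.4th percentile) switched in the same way: wild type covered 233, 317, 247 and 121 bp, and H3K4me3 in the mutants had folds of 13.6 ± 2.34, 11.1 ± 4.13 and 14.1 ± 5.67. The region between them, X 9900592 to 9901144 (34.5th percentile), lost its 303, 533, 544 and 110 bp without an H3K4me3 peak in any library. In lin-35 X 13917942 to 13918533 (61.2nd percentile) switched both marks too. Wild type covered 211 to 592 bp there, lin-37 118 to 334 bp and lin-35 none, and H3K4me3 was called only in the 4 lin-35 libraries (fold 10.9 ± 2.63).

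The remaining named losses had no H3K4me3. X 17641702 to 17642321 (50.9th percentile) lay 76.8 kb from the right end and was lost in lin-15B and lin-37, with 1 lin-35 library calling 123 bp. Its wild-type values were uneven, at 138, 620, 150 and 111 bp. X 15906527 to 15907439 (59.8th percentile), lost in lin-37 alone, was called in 1 library each of lin-15B and lin-35. X 1390792 to 1391492 and X 2657753 to 2658299 (38.3rd and 35.1st percentile) were lost in lin-35 and lin-37, and lin-15B still called the former in 3 libraries and the latter in 1.

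Although some regions were lost, the mean length covered by H3K9me2 inside the 391 regions was not below that of wild type in any mutant; these values rest on the choice of members and get no test against wild type. Wild type covered 305 and 382 kb at 20 °C and 336 and 283 kb at 26 °C. The lin-15B libraries covered 271 and 447 kb at 20 °C and 551 and 444 kb at 26 °C, the lin-35 libraries 358, 425, 386 and 358 kb and the lin-37 libraries 410, 325, 364 and 357 kb. The means were 326.6 ± 42.97 kb in wild type, 428.1 ± 116 kb for lin-15B, 381.8 ± 31.9 kb for lin-35 and 364.2 ± 35.1 kb for lin-37 (SD, n = 4). The lin-15B libraries spread widest and held both the lowest and the highest value. Without 20 °C replicate 1 their mean was 480.6 ± 61.4 kb (SD, n = 3).

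The 3 mutants did not differ past the threshold (exact permutation p = 0.488, adjusted p = 0.537), though without lin-15B at 20 °C, replicate 1, the exact permutation p was 0.00970. At 26 °C the mutant libraries covered 37.1 kb more than at 20 °C on average, which did not pass an exact permutation test within genotype (p = 0.537, adjusted p = 0.537). Without the same lin-15B library the difference was 7.74 kb. By genotype the mean difference of 26 °C minus 20 °C was -33.9 kb in wild type, 138.7 kb for lin-15B, -19.9 kb for lin-35 and -7.45 kb for lin-37, each from 2 libraries against 2.

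The covered length was split at the union of the wild-type peaks. Over the stretches covered by any wild-type peak, the mutants covered 334.1 ± 69.0 kb (lin-15B), 334.5 ± 20.2 kb (lin-35) and 328.4 ± 26.996 kb (lin-37), against 326.6 ± 42.97 kb in wild type. Without 20 °C replicate 1 the lin-15B mean was 367.2 ± 24.1 kb. Within the regions but outside those stretches, where wild type has none by construction and any other library can only add, lin-15B covered 35.8 to 156.6 kb, lin-35 28.5 to 66.4 kb and lin-37 30.6 to 49.9 kb. On X outside the 391 regions the lin-15B libraries covered 118.5, 864.5, 994.9 and 665.5 kb. Wild type covered 35.8 to 150.6 kb there, lin-35 135.0 to 387.2 kb and lin-37 118.1 to 236.3 kb, so that 3 lin-15B libraries lay far above all others and the fourth within the wild-type range.

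**Figure D3:**
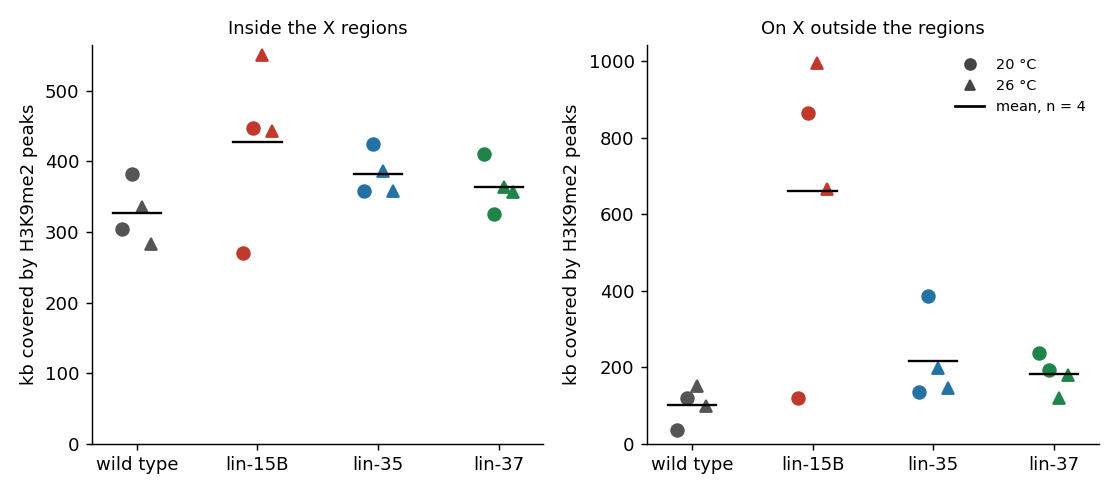
Length in kb covered by H3K9me2 peaks (vertical axis) inside the 391 X regions (left) and on X outside them (right) in each library, by genotype; circles are 20 °C, triangles 26 °C and black lines means of 4 libraries. Inside the regions the groups overlap, and outside them 3 lin-15B libraries reach 665.5 to 994.9 kb.

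As a share of all H3K9me2 length in a list, X held 3.74%, 4.42%, 5.06% and 5.08% in wild type, and 4.88%, 9.89%, 13.8% and 10.9% in lin-15B. In lin-35 it held 5.54%, 6.96%, 6.51% and 5.90% and in lin-37 5.83%, 5.87%, 5.76% and 6.12%. All lin-35 and all lin-37 libraries lay above all wild-type libraries, and 3 of the 4 lin-15B libraries did. The share differed over the 4 genotypes at a permutation p of 0.0173 (100000 draws over 16 libraries), which became 0.0518 after adjustment over 9 tests and did not pass. Against wild type the mean difference was 1.65 percentage points in lin-35 and 1.32 in lin-37 (exact permutation p = 0.0286, adjusted p = 0.0429 over 3 mutants for both) and 5.31 in lin-15B (exact permutation p = 0.0857, adjusted p = 0.0857). These 3 comparisons with wild type were not planned, and they follow a test over the 4 genotypes that did not pass after adjustment. With 1 library left out (3 against 4, unadjusted), the lin-37 difference kept an exact permutation p of 0.0286 in all 8 cases and the lin-35 difference in 7, with 0.0571 without wild type at 20 °C, replicate 1. The lin-15B difference was 6.97 points without 20 °C replicate 1 (exact permutation p = 0.0286) and had p values of 0.0857 or above in the other 7 cases. Without lin-15B at 20 °C, replicate 1, the permutation p over the 4 genotypes was 2e-05.

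Single regions grew longer as well as shorter. A region counted as longer in a mutant when its covered length in all 4 mutant libraries exceeded that in all 4 wild-type libraries. This was so at 33 X regions for lin-15B (8.44%), 19 for lin-35 (4.86%) and 21 for lin-37 (5.37%), against 4.42%, 1.62% and 1.6% over all wild-type regions. The reverse held for 14 (3.58%), 31 (7.93%) and 13 (3.32%) on X, against 13.4%, 8.65% and 7.67% over all. These counts include the regions lost outright, which on X were 6, 19 and 7. Since members were chosen for wild-type calls, these counts are descriptions and carry no test. The 33 longer regions in lin-15B, picked for that rise, had a median of 427 bp covered in wild type and 1285 bp in lin-15B.

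The regions longer in all 3 mutants numbered 4, a set counted after the values were seen. The pair with the most added length was X 9190709 to 9201498 and X 3747041 to 3755506. The former covered 4054, 3989, 2603 and 2151 bp in wild type and 5604, 10607, 10550 and 10151 bp in lin-15B. In lin-35 it covered 8541 to 10220 bp and in lin-37 5511 to 10205 bp. The latter covered 1504 to 3770 bp in wild type, at least 6775 bp in every lin-15B library, 6178 to 8275 bp in lin-35 and 5255 to 8107 bp in lin-37. In both, every mutant library exceeded every wild-type library, and the mean was 2.63 to 3.72 times that of wild type.

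Against all autosomal regions, the share kept by the mutants was lower on X in some libraries and higher in others. Within classes of like length the share kept was higher on X. The share called on X minus the share called on the autosomes in the same library was -1.94, 5.12, 7.13 and 7.50 percentage points in lin-15B, -2.12, -1.58, -1.06 and -3.61 in lin-35, and 1.76, 2.19, 4.12 and 3.20 in lin-37. All 4 lin-35 values were below 0 and all 4 lin-37 values above. The mean of 1.73 points over the 12 mutant libraries did not pass an exact sign-flip permutation test (p = 0.140, adjusted p = 0.251). It was -0.817 without wild type at 20 °C, replicate 1, and 2.86 without wild type at 26 °C, replicate 2 (exact permutation p = 0.0347). All 12 values share the regions chosen from the wild-type lists. The sign-flip test thus cannot decide the question, and its p-values are not read. The 3 mutants differed in the X minus autosome value at an exact permutation p of 0.0301, a test added after the data were seen, and the adjusted p of 0.0678 did not pass. Without lin-15B at 20 °C, replicate 1, the exact permutation p was 0.000173. Both p-values among mutants rest on the same regions and speak of these libraries alone.

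Since X regions are shorter, both sets were also divided at 320, 454 and 868 bp of wild-type covered length. In the shortest class the 97 X regions were called in 82.2% ± 21.2 of cases for lin-15B, 79.9% ± 12.8 for lin-35 and 91.2% ± 1.97 for lin-37. The 530 autosomal regions of that class were called in 62.3% ± 19.2, 74.3% ± 13.3 and 79.8% ± 3.43. Without 20 °C replicate 1 the lin-15B shares were 92.8% on X and 71.8% on the autosomes. In the longest class the means of the 3 mutants were at least 98.2% on X and at least 96.9% on the autosomes. The mean X share was thus higher in every mutant, most in the shortest class and least in the longest.

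Averaged over the 4 classes, X exceeded the autosomes in all 12 mutant libraries, by 7.44 percentage points on average (1.51 to 14.1). The mean was 12.2 ± 1.53 for lin-15B, 3.20 ± 1.67 for lin-35 and 6.94 ± 1.40 for lin-37 (SD, n = 4). This comparison was added after the data were seen. The classes and the regions come from the same wild-type lists, which all 12 values share, so it is given as a description. A sign-flip permutation test of the comparison counts among the 9 tests adjusted together. It cannot decide the question for that reason, and its p-value is not read. Without wild type at 20 °C, replicate 1, the list with the lowest X share, the mean was 4.78. Mutant lists also held more length on X outside the regions, as given above, and its part in the difference was not tested.

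**Figure D4:**
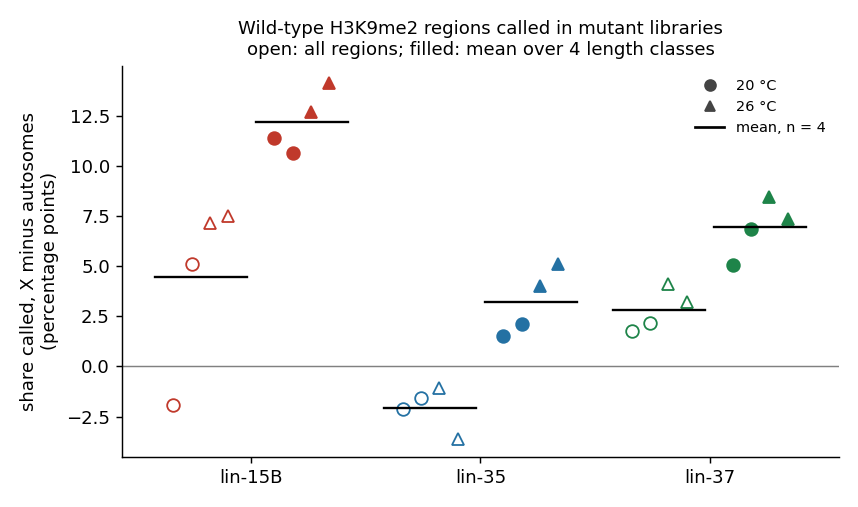
Share of wild-type H3K9me2 regions called in each mutant library on X minus the same share on the autosomes, in percentage points, by genotype; open symbols use all regions and filled ones the mean over 4 classes of wild-type covered length, circles are 20 °C, triangles 26 °C and black lines means of 4 libraries. Open symbols fall on both sides of 0, and all 12 filled symbols lie above it, from 1.51 to 14.1.

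H3K4me3 was rare at these regions. Of the 391, 314 had no H3K4me3 peak in any of the 16 libraries, 57 in some and 20 in all, and 29 had one in all 4 wild-type libraries. Each mark was called in its own libraries of whole larvae, so a region with both need not carry them in the same cells. Per library the share of X regions with H3K4me3 was 7.42%, 9.46%, 11.3% and 8.44% in wild type and 8.70%, 13.04%, 7.67% and 10.5% in lin-15B. It was 14.1%, 9.21%, 11.3% and 10.2% in lin-35 and 10.2%, 8.70%, 11.3% and 11.8% in lin-37, with the 4 genotypes overlapping.

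The genotypes did not differ past the threshold in that share (permutation p = 0.506, adjusted p = 0.537), and the differences from wild type were 0.831 percentage points for lin-15B, 2.05 for lin-35 and 1.34 for lin-37 (exact permutation adjusted p = 0.600, 0.386 and 0.386 over 3 mutants). Within the 8 libraries of the shared code the differences were 1.41, 1.79 and -0.384 points, and in the other 8 they were 0.256, 2.30 and 3.07. With every H3K4me3 list reduced to the same number of peaks, a setting added after the data were seen, lin-35 exceeded wild type by 2.24 points (exact permutation p = 0.0286, unadjusted) and the permutation p over the 4 genotypes was 0.0481.

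Autosomal H3K9me2 regions carried H3K4me3 more often. Their share was 19.8% to 32.8% over the 16 libraries, against 7.42% to 14.1% on X, with no overlap. In the same 4 classes of covered length the X share was 5.67%, 10.2%, 9.76% and 15.1% from shortest to longest (means of 16 libraries) and the autosomal share 12.5%, 20.4%, 23.1% and 30.8%. The difference averaged over the classes was -11.5 ± 2.76 percentage points (-18.2 to -7.82) and lay below 0 in all 16 libraries. An exact sign-flip permutation test, added after the data were seen, gave p = 3.05e-05 and adjusted p = 0.000275. All 16 values use the same regions and classes, taken from the wild-type lists. The p-value thus speaks of these libraries alone, and nothing about the chromosomes is concluded from it. H3K4me3 as such was also less extensive on X, where it covered 2.85% to 7.22% of the chromosome against 4.40% to 8.54% of the autosomes, and the part of this in the difference was not tested.

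**Figure D5:**
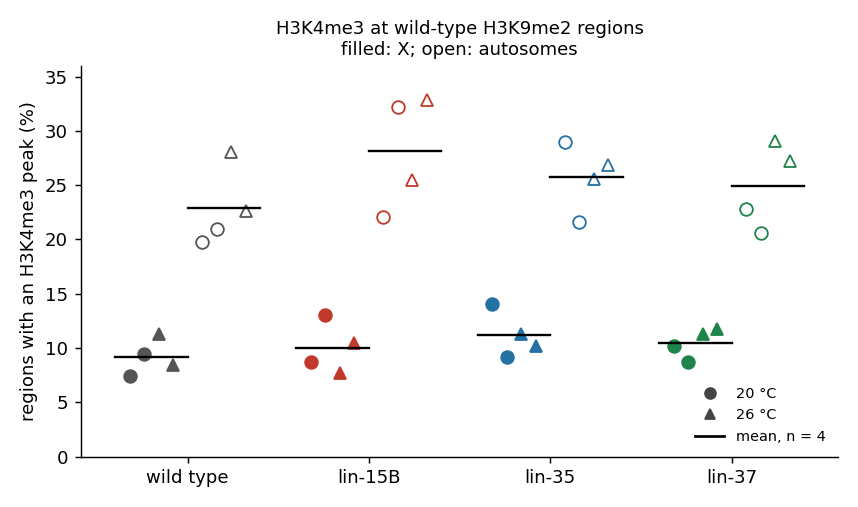
Percentage of wild-type H3K9me2 regions that overlap an H3K4me3 peak in each library, by genotype; filled symbols are the 391 X regions, open symbols the 4744 autosomal regions, circles 20 °C, triangles 26 °C and black lines means of 4 libraries. The X values lie between 7.42% and 14.1% and the autosomal values between 19.8% and 32.8%.

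The shares that kept H3K9me2 were also set beside H3K4me3. The lin-35 libraries called 90.8% ± 4.91 of the 314 regions without H3K4me3, 78.1% ± 8.89 of the 57 with it in some libraries and 78.8% ± 7.50 of the 20 with it in all 16. The corresponding shares were 92.0% ± 11.2, 87.7% ± 11.7 and 77.5% ± 18.5 in lin-15B (97.6%, 93.6% and 86.7% without 20 °C replicate 1) and 96.0% ± 1.09, 93.4% ± 2.63 and 92.5% ± 5.0 in lin-37. Since the SDs are wide in lin-15B and the classes were formed with mutant H3K4me3 calls, no test was made. Of the 23 lost regions 12 had H3K4me3 in at least 1 library. For lin-15B it was 4 of the 6 lost against 73 of the 385 not lost. The counts were 10 of 19 against 67 of 372 for lin-35, and 2 of 7 against 75 of 384 for lin-37. They include lost regions that gained H3K4me3 in that same mutant, namely 2 of the 4, 3 of the 10 and 2 of the 2. Such counts were not made over all 5135 wild-type regions, so no link of loss to H3K4me3 on X is read from them.

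Gain of H3K4me3, no peak in wild type and one in all 4 libraries of a mutant, occurred at 4 X regions for lin-15B (1.02%), 8 for lin-35 (2.05%) and 4 for lin-37 (1.02%). Over all wild-type H3K9me2 regions the shares were 2.75%, 1.93% and 1.03%, so lin-35 and lin-37 were near the background and lin-15B below it. The reverse, loss of an H3K4me3 peak held by all 4 wild-type libraries from all 4 libraries of a mutant, occurred at 0 X regions in each mutant, against 0%, 0.0584% and 0.0584% over all. The 8 regions gained in lin-35 included all of those gained in the other mutants.

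Besides the 3 regions that switched both marks, 5 gained H3K4me3 in lin-35 with H3K9me2 still called in some lin-35 library. At X 9117466 to 9118058 (90.8th percentile) H3K9me2 was called in 1 lin-35 library and in all 8 of lin-15B and lin-37, and H3K4me3 appeared in the 4 lin-35 libraries alone, at a deposited fold of 16.8 ± 2.67. X 17501022 to 17502019 (79.2nd percentile), 217 kb from the right end, gained H3K4me3 in lin-35 (fold 19.9 ± 11.4) and lin-15B (4.14 ± 1.53), and H3K9me2 was called in 2 and 4 libraries of these. X 7370248 to 7371332 (54.3rd percentile) gained it in all 3 mutants, with H3K9me2 called in 3 lin-37 libraries, 2 of lin-15B and 1 of lin-35. At X 2744914 to 2746150 (80.9th percentile) it was gained in lin-35 and lin-37, and at X 14434355 to 14435969 (78.8th percentile) in lin-35 alone, where 3 libraries still called H3K9me2. These 5 regions were listed after their values were seen.

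At other regions both marks were called throughout. The 5 highest-ranked regions with H3K4me3 in all 16 libraries included X 15724853 to 15726043 and X 14101567 to 14102370, each lost in 1 mutant. The other 3 kept H3K9me2 in all 16 libraries as well. At X 1856026 to 1856864 wild type covered 504, 655, 635 and 385 bp and the mutants 324 to 735 bp, and at X 44799 to 48865 (95.7th percentile) wild type covered 1002 to 2639 bp and the mutants 669 to 3183 bp. At X 15706748 to 15707545 the ranges were 326 to 600 bp in wild type and 174 to 586 bp in the mutants. Wild-type and mutant values overlapped at all 3.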

How the data were processed

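H3K9me2 and H3K4me3 peak lists of 32 of the 78 samples were used, and the other samples were not analysed here. The submitters' processing notes name Bowtie 1.1.2, ce10 and MACS2 (version not given in the sources used here). Peaks were deposited per library. Their names carry a q cutoff, 0.01 for 31 lists and 0.05 for 1, a shift size of 125 bp for H3K9me2 and an extension size of 250 bp for H3K4me3. The deposited H3K4me3 lists give the authors' fold enrichment (ratio) and −log10 p and q values, of which only the fold is printed. The deposited H3K9me2 lists hold score columns whose order was not settled, so the score only ranked peaks within a list. Width and covered length can move with depth, which is unknown.

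H3K4me3 sub-peaks with the same start and end were collapsed. Merging, calls and covered length followed the definitions given with the results, with positions 1-based in ce10. Libraries were grouped by the labels. The labels do not say whether replicates came from separate cultures. The p-values therefore speak only of variation among these libraries, part or all of which may be technical. Tests were two-sided permutation tests over libraries: all arrangements, or 100000 draws where 16 libraries in 4 genotypes were permuted. Benjamini-Hochberg adjustment covered 9 tests across libraries and 3 pairs in each pairwise family. The loss rule and the permutation code were tested on simulated lists. Named regions were the 5 of highest wild-type percentile, the 5 widest, the 5 highest-ranked lost in each mutant, all lost in 3 mutants, all that switched both marks, the 5 highest-ranked with H3K4me3 in all 16 libraries, and those just outside the rule. The members, these lists and the tests were chosen with earlier results of these data known. Alternatives were an overlap of 200 bp, equal peak numbers (for both marks, and later for H3K4me3 alone), regions merged from wild type alone, a rule of at least 3 against at most 1 library, single temperatures, library sets, a replicate block and leaving out each library. Python 3.11.15, NumPy 2.4.6, pandas 2.3.3, SciPy 1.17.1 and Matplotlib 3.10.9 were used.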

Additional observations from a re-analysis of the deposited data

Results flagged for a closer look

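Within each genotype, 40 sets of 4 library values were screened for a single value far from the other 3, by the gap to its neighbour as a share of the whole range; chance marks about 1 in 20 such sets. In lin-15B, the library of 20 °C replicate 1 stood far below the other 3 in the share of the X regions called, 73.1% against 96.2% to 96.9%, and likewise on the autosomes, 75.1% against 88.7% to 91.0%. Its peak names carry a q cutoff of 0.05 where the other lists carry 0.01, and whether it was called with other settings is not given. In lin-37, the library of 20 °C replicate 1 stood above the others in the length covered within the X regions but outside wild-type peaks, 49.9 kb against 30.6 to 31.4 kb.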

How the results depend on the processing

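Of 305 values recomputed under alternatives, 271 kept their direction and their side of the unadjusted threshold or, for counts, stayed within 1.5 times. The counts of lost regions moved most, though most of the settings also changed the set of regions counted. For lin-15B, lin-35 and lin-37 they were 3, 11 and 2 with an overlap of 200 bp, 43, 71 and 35 with at least 3 against at most 1 library, 30, 36 and 26 within 20 °C and 27, 98 and 45 within 26 °C; with equal peak numbers lin-37 lost 4. With 1 library left out they ranged from 6 to 17, 19 to 33 and 7 to 15, and the number of regions from 398 to 478 without 1 wild-type library. The permutation p for the share called ranged from 0.00970 to 0.802, for covered length from 0.00970 to 0.881, for the X share of covered length from 2e-05 to 0.0308 and for differences among mutants in X minus autosomes from 0.000173 to 0.111. That last p was 0.197 with the 200 bp overlap and 0.0578 with regions merged from wild type alone. X minus autosomes ranged from -0.817 (without wild type at 20 °C, replicate 1) to 2.86, its mean over length classes from 4.78 to 9.57, and the difference between temperatures from 7.74 to 66.3 kb. For H3K4me3 the difference from wild type ranged from -0.192 (without lin-15B at 20 °C, replicate 2) to 1.60 in lin-15B, 1.09 to 2.75 in lin-35 and 0.767 to 2.05 in lin-37, the permutation p over genotypes from 0.262 to 0.734 and X minus autosomes over length classes from -11.8 to -10.0. It was 2.13 in lin-35 with equal peak numbers for both marks, which left 317 regions, and 2.24 with equal H3K4me3 peak numbers alone, where the permutation p over genotypes was 0.0481, and it was -0.384 in lin-37 within the libraries of the shared code. The cause of these shifts was not tested. Replicate numbers did not pair the libraries: deviations of same-numbered libraries correlated at -0.182 to 0.132 over 28 pairs of groups. With the replicate block the permutation p was 0.455 for the share called, 0.547 for covered length, 0.0201 for the X share of covered length and 0.535 for H3K4me3, and no call changed. Depth, unknown here, limits how far a missing peak can be read.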
